A study of Mus musculus with 3 samples.

Results

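Epithelial barcodes rich in fatty acid binding and apolipoprotein RNA were examined in droplet single-cell RNA sequencing of a mouse small intestinal sort that was aimed at endothelium. Members were chosen by measured values: a barcode was counted when it had at least 500 detected genes, at most 15% mitochondrial UMIs (unique molecular identifiers, each standing for 1 captured RNA molecule), at least 1 Epcam UMI, at least 1% of its UMIs in Fabp1, Fabp2, Fabp6 and Apoa1 together, no Prox1 or Ptprc UMI, and under 3% of its UMIs in defensin (Defa) genes. This gave 315 members among 22534 barcodes that passed the filters on genes and mitochondrial UMIs, or 1.40%. The 3 libraries form 1 group of wild-type C57Bl/6 females aged 9 to 10 weeks, with 4 animals pooled in each, and no treatment or control group. The small intestine without the duodenum was incubated with EDTA and DTT to take off the epithelium, the rest was digested with Liberase TL and DNase I for 60 minutes at 37 °C, and live, nucleus-stained events that were CD45-, CD31+ and PDPN+ were sorted in an enriched mode. Nothing in the labels says whether libraries shared animals, so p-values below measure only the spread between these 3 libraries, which may be technical.

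Absorptive enterocytes line the villi, digest sugars and peptides at a brush border of microvilli, and take up the products. Their work is divided along the gut. In the jejunum they absorb most fat, pack it with apolipoproteins into chylomicrons for the lymph, and take up retinol and folate. In the ileum they reclaim bile acids, which enter through the apical transporter Slc10a2, are carried through the cytosol by Fabp6 and leave through the basolateral pair Slc51a and Slc51b. Bile acids also bind the nuclear receptor Nr1h4 (FXR), whose target Fgf15 is the hormone that lowers bile acid synthesis in the liver. Fabp1 and Fabp2 bind long-chain fatty acids, and Apoa1 is the main apolipoprotein of high-density lipoprotein.

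Library 2 held 202 of the 315 members (64.1%), library 1 held 61 and library 3 held 52. Members made up 0.959% of the passed barcodes of library 1 (exact 95% binomial interval 0.735 to 1.23), 3.01% of library 2 (2.62 to 3.45) and 0.549% of library 3 (0.410 to 0.720), a mean of 1.51% ± 1.32 (SD, n = 3). Without library 2 the mean was 0.754%. The sort gate and the stripping of epithelium can set these shares, and the intervals cover counting error only. Median depth was 7554, 21635 and 17293 UMIs per member in libraries 1, 2 and 3, and the libraries held 58857545, 69231794 and 74571090 UMIs in all barcodes. Mitochondrial UMIs were a median 9.56%, 7.58% and 7.94% of members, against 5.80%, 4.60% and 5.27% of the 407 other Epcam-positive barcodes and 1.94%, 1.73% and 1.81% of the 18488 barcodes with Prox1, the lymphatic transcription factor, and no Epcam. No cell barcode of a member occurred among the members of another library, while 19, 13 and 30 barcodes of all kinds were shared by pairs of libraries. No doublet caller was run.

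The markers of the label were checked next. They chose the members in part, so their levels are a description. Fabp6 (chromosome 11, 43596049 to 43601540, minus strand, GRCm38) stood at 13766, 40268 and 20733 CPM (counts per 1e6 UMIs of the same barcodes) in members of libraries 1, 2 and 3, against 274, 666 and 461 CPM in other Epcam-positive barcodes. Library 2 was highest in both, and the gap between them follows in part from the rule, which holds Fabp6. Fabp2 (chromosome 3, 122895072 to 122899506) stood at 13867, 7081 and 11309.9 CPM in members and 500.4, 519 and 626 CPM in other Epcam-positive barcodes. Apoa1 (chromosome 9, 46228580 to 46230466) stood at 14748, 7167 and 8368 CPM in members and 106, 272 and 204 CPM in the others. For both genes library 2 was the lowest among the members. Sis and Reg3b were not in the rule. Sis, the sucrase-isomaltase of the brush border (chromosome 3, 72888557 to 72967863), stood at 3068, 2515 and 2874 CPM in members, close to even over the libraries, and 357, 389.9 and 256 CPM in other Epcam-positive barcodes. Reg3b, a lectin secreted against bacteria (chromosome 6, 78370657 to 78373466), stood at 22774, 42859 and 26576 CPM in members and 3212, 5415 and 1675 CPM in the others. UMIs of the 5 markers also occurred in Prox1-positive barcodes, with a sum of 22.5, 219 and 66.6 CPM in libraries 1, 2 and 3. The sum in members was 68224, 99889.9 and 69859.8 CPM. Whether the UMIs in Prox1-positive barcodes came from RNA of other cells was not tested.

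**Figure D1:**
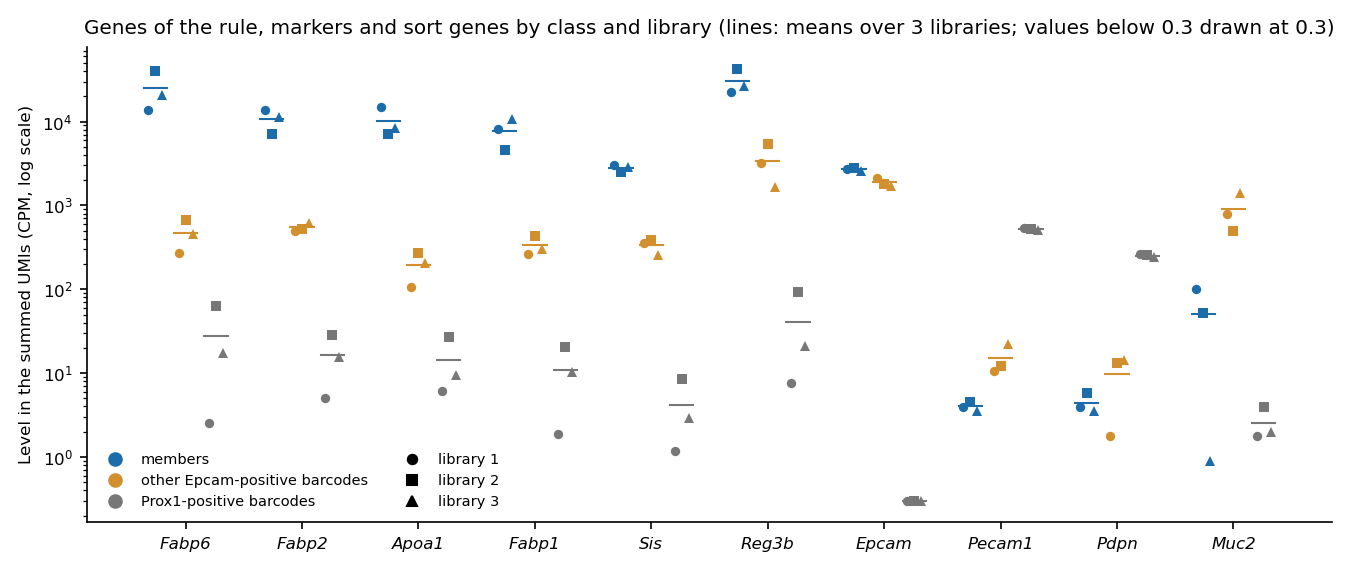
Level of the rule's genes, the markers and the genes of the sort in members, other Epcam-positive barcodes and Prox1-positive barcodes (CPM of summed UMIs, log axis). Each point is 1 library, lines are means over 3 libraries, and values under 0.3 are drawn at 0.3. Members lie highest for Fabp6, Fabp2, Apoa1, Fabp1, Sis and Reg3b and low for Pecam1, and Epcam is absent from Prox1-positive barcodes because they were chosen without it.

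The genes that the sort was aimed at were near background in members. Pecam1, the gene of CD31, stood at 3.95, 4.51 and 3.54 CPM in members and 544, 529 and 507 CPM in Prox1-positive barcodes. Pdpn, the gene of podoplanin, stood at 3.95, 5.80 and 3.54 CPM in members and 261, 254 and 243 CPM in Prox1-positive barcodes. Cdh5, the cadherin of endothelial junctions, stood at 0.988, 4.94 and 7.97 CPM in members and 567, 548 and 534 CPM in Prox1-positive barcodes. The labelled cell type, endothelial cells, is therefore not what these barcodes express. The 7 lymphatic genes summed to 185, 257 and 90.4 CPM in members, with Prox1 at 0 by the rule, against 19629, 19829 and 17358 CPM in Prox1-positive barcodes.

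Markers of other epithelial cells were low but not all absent. The 8 stem and transit amplifying genes summed to 44.5, 77.8 and 48.7 CPM in members, against 893, 1026 and 1273 CPM in other Epcam-positive barcodes, and the crypt gene Olfm4 had 8 UMIs in all 315 members. The 8 proliferation genes summed to 13.8, 77.1 and 9.75 CPM in members and 1448, 804 and 670.3 CPM in the others. The 6 Paneth genes measured summed to 11.9, 13.1 and 15.1 CPM in members and 1698, 4624 and 4293 CPM in the others. The 9 goblet genes summed to 1061, 591 and 118 CPM in members and 11895, 9871 and 27045 CPM in the others, and Muc2, the gel-forming mucin of goblet cells, stood at 99.8, 52.8 and 0.886 CPM in members. Goblet genes gave the highest of these sums in library 1, and fibroblast and mural genes in libraries 2 and 3, with 32.6, 647 and 160.4 CPM in members. B or plasma cell genes summed to 6.91, 74.5 and 16.8 CPM, nearly all of it Igha and Jchain, and enteroendocrine genes to 177, 49.0 and 52.3 CPM, led by Sct and Chga. The enteroendocrine sum in other Epcam-positive barcodes was 20.7, 63.6 and 35.4 CPM. Unlike the epithelial lists above, it was higher in members in libraries 1 and 3 and lower in library 2. T cell, tuft and myeloid sums lay between 0 and 13.5 CPM. Ccl21a, at 114 ± 63.1 CPM (SD, n = 3), led the lymphatic genes in members, with Lyve1 at 27.8 ± 11.3 CPM, Reln at 16.0 ± 10.4 CPM and Flt4 at 15.4 ± 5.77 CPM. The proliferation gene Mki67 stood at 7.03 ± 6.57 CPM, the Paneth gene Lyz1 at 4.23 ± 1.48 CPM and the blood vessel gene Plvap at 3.02 ± 4.33 CPM in members. UMIs of goblet genes exceeded 0.2% of the barcode in 11 members, lymphatic UMIs in 7 and B or plasma cell UMIs in 3.

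The 1% threshold of the rule had barcodes close by on both sides, more of them outside than inside. In the 4 genes, 17 members had between 1% and 1.5% of their UMIs. Another 39 barcodes that met every other condition had between 0.5% and 1%. The members just inside had Sis at 1619, 2367 and 2675 CPM, and the barcodes just outside had it at 2128, 1144 and 629 CPM. The median member had 4.62%, 6.00% and 5.28% of its UMIs in the 4 genes. Of 421 barcodes with at least 1% of their UMIs in these genes, 94 were left out for Prox1, 9 for lack of Epcam, 3 for Ptprc and none for defensins.

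The rest of the member profile was that of mature villus epithelium. Genes are given here by the share of UMIs that they took, which in 3′ libraries is not divided by gene length. After Gm42418, an annotated RNA that overlaps ribosomal RNA sequence, the genes with the most UMIs were Reg3b, Fabp6, Fabp2, Apoa1, Malat1, Actb, Reg3g and Fabp1, mitochondrial and ribosomal protein genes set aside. Crip1, Fth1, Rbp2, Lgals4, Tpt1, Krt8, Lypd8, Plac8, Fau and Pigr were also among the first 20, and Sis and Epcam came just after these. Among brush border enzymes, Anpep, an aminopeptidase, stood at 2123 ± 343 CPM in members and 125 ± 24.7 CPM in other Epcam-positive barcodes (mean ± SD, n = 3 libraries). Mgam, a maltase, stood at 1244 ± 242 CPM in members and 255 ± 34.3 CPM in the others. Slc5a1, the sodium-glucose cotransporter, stood at 1259 ± 452 CPM in members and 109 ± 11.8 CPM in the others, and Slc6a19, the main transporter of neutral amino acids, at 166 ± 69.0 CPM and 4.46 ± 4.74 CPM in the same order. All 18 sugar, peptide and amino acid transporters and 18 of 19 measured brush border hydrolases were higher in members than in other Epcam-positive barcodes in every library. So were 25 of 29 genes of lipid absorption and 9 of 10 genes of bile acid handling. These counts describe how the rule divided the epithelium and carry no test. The share of all genes that were higher or lower in members in every library is not given, so no list can be set against it. Dbi, the acyl-CoA binding protein, stood at 2222 ± 81.6 CPM and the lectin-like gene Clec2h at 1586 ± 169 CPM in members. Muc13, a membrane mucin, stood at 1285 ± 214 CPM, the junction genes Cldn7 at 1704 ± 63.6 CPM and Cdh17 at 641 ± 62.4 CPM, the microvillus bundler Pls1 at 1268 ± 181 CPM, and the amino acid carriers Slc43a2 at 371 ± 87.2 CPM and Slc7a9 at 205 ± 14.1 CPM. In chylomicron assembly, Apob stood at 1441 ± 405 CPM and Mttp, which loads it with fat, at 844 ± 235 CPM in members, against 106 ± 18.3 CPM and 138 ± 19.6 CPM in the others. Villus-tip keratin Krt20 was even over libraries, at 969, 1036 and 954 CPM in members and 132, 139 and 156 CPM in the others. Of 20 immediate early and stress genes, 17 were lower in members in every library, a count with the same limit as those above. Fos stood at 1036, 875 and 893 CPM in members and 1351, 1436 and 1364 CPM in the others.

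Fabp6 and Fabp1 hardly ever shared a member. At a level of 0.1% of the barcode's UMIs, chosen after the values were seen, 218 members carried Fabp6 only, 75 carried Fabp1 only, 2 carried both and 20 neither. Because the rule asks for any of 4 genes, neither of the pair was required. Fabp6 reached this level in 31 of 61 members of library 1 (50.8%), 154 of 202 of library 2 (76.2%) and 35 of 52 of library 3 (67.3%). The ileal label therefore holds for most members and not for all. Few members lay near that level: 7 of the 315 members had Fabp6 between 0.05% and 0.2%, while 207 had it above 1%. Fabp6 stood at 31364, 56582 and 46279.5 CPM in Fabp6-only members of libraries 1, 2 and 3 and 57.7, 24.0 and 12.4 CPM in Fabp1-only members. Fabp1 (chromosome 6, 71199827 to 71205023) stood at 106, 13.9 and 15.9 CPM in Fabp6-only members and 16234, 17096 and 21165 CPM in Fabp1-only members. In Prox1-positive barcodes, which should lack both, Fabp6 stood at 2.56, 62.9 and 17.4 CPM and Fabp1 at 1.86, 20.6 and 10.3 CPM. The trace of each gene in the other kind of member lay above this level in library 1 and near it in libraries 2 and 3. Fabp2 was in both kinds, at 8766, 3425 and 1997 CPM in Fabp6-only members and 19189.5, 16589 and 17814 CPM in Fabp1-only members, as was Apoa1, at 11582, 5146 and 4192 CPM and 16070.5, 12164 and 11326 CPM in the same order. Depth differed between the kinds, with a median of 6714, 16764 and 6427 UMIs in Fabp6-only members and 35250, 31660 and 35676 UMIs in Fabp1-only members. The part of depth in this pattern was not tested.

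**Figure D2:**
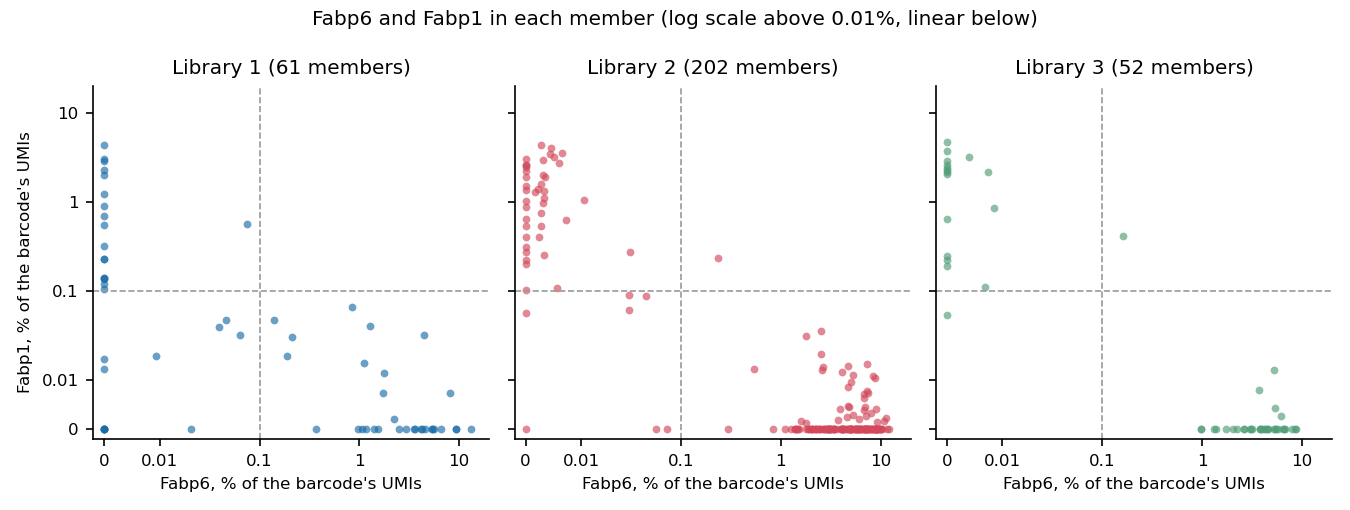
Share of UMIs in Fabp6 (x axis) and Fabp1 (y axis) of each member, by library (percent, log scale above 0.01% and linear below). Dashed lines mark 0.1%, and 2 members of 315 lie above both lines.

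The promoters of this pair are shown because the 2 genes separate the members. The sequences are from RefSeq (GRCm38.p6) and run from 250 to 61 bases before the annotated start, 5′ to 3′ on the gene's own strand. Capitals mark the motif found.
Fabp6, chr11:43601623-43601812, minus strand: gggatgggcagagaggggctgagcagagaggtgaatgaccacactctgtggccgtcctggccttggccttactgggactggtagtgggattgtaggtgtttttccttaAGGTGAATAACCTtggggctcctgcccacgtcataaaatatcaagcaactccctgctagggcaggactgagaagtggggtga
Fabp1, chr6:71199629-71199818, plus strand: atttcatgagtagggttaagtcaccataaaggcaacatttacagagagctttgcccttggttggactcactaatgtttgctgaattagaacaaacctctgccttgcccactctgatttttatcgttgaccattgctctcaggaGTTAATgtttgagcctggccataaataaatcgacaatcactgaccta
Motifs were searched, after the sequences had been read, over windows from 250 bases before to 50 after the start and on both strands. The inverted repeat AGGTGAATAACCT, of the kind that FXR binds, occurs once at the Fabp6 gene, 142 to 130 bases before the start, and in 1 of 32851 promoters (0.00304%). Its outer letters alone, AGGTNNNNNACCT, occur in 102 promoters (0.31%), and of the bile acid genes with a promoter entry (Slc10a2, Slc51a, Slc51b, Nr0b2 and Nr1h4 beside Fabp6) only Fabp6 holds them. GTTAAT, a site of the kind that HNF1 binds, occurs once at Fabp1, 107 to 102 bases before the start, and in 7.10% of promoters, Slc10a2 and Nr1h4 included. The inner letters of the inverted repeat were copied from the Fabp6 promoter itself. Its full match there was therefore fixed in advance, and its rarity over the promoters is no result. A match is a description of letters and not of binding.

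To ask what goes along with Fabp6, the members of each library were divided at the library's median Fabp6 share into 157 Fabp6-high and 158 Fabp6-low members. UMIs were summed per library and side and tested with edgeR's quasi-likelihood test, with the library as a block and Benjamini-Hochberg adjustment over all genes tested. The genes of the rule were left out, since they chose the members. A member with little Fabp6 could meet the rule only through Fabp1, Fabp2 or Apoa1, so the rule shaped the Fabp6-low side. Leaving these genes out of the test does not undo that, and its part in the differences below was not tested. Of 5981 genes, 945 passed an adjusted p of 0.05 (15.8%), 380 of them higher in Fabp6-high members (6.35%) and 565 lower (9.45%), and 476 differed by more than 1 on the log2 scale. The median log2 fold change of all genes was -0.01. Fabp6-high members had a median of 7288, 20285 and 6717 UMIs in libraries 1, 2 and 3, and Fabp6-low members 7554, 27820 and 28002. Their median mitochondrial shares were 9.01%, 7.61% and 6.63% in Fabp6-high and 11.1%, 7.43% and 8.38% in Fabp6-low members. Among members with at least 5000 UMIs, 757 genes passed. When every member was thinned to 2000 UMIs, 873 genes could be tested and 76 passed. Calls that this ends are given beside the genes below, but 42 of the genes followed could not be tested after thinning. Among these were Nr1h4, Abcc2, Adh1, Slc2a2, Scd2, Cyp3a11, Ciita, Gata4, Gata6, Onecut2, Cldn2, Suox, Sqle, Fdps and Cyp51. A gene without such a remark may therefore be untested at equal depth. The median cut was 0.139%, 3.71% and 2.63% Fabp6 in libraries 1, 2 and 3, so that Fabp6-rich members of libraries 2 and 3 stand on the low side too. When Fabp6-only members were set against Fabp1-only members instead, a comparison added after the data were seen, 1362 of 5366 genes passed (25.4%), 588 higher and 774 lower (14.4%). With the members divided at 0.1% of UMIs in Fabp6, 1217 of 5620 passed (21.7%), 509 higher (9.06%) and 708 lower (12.6%). Without the library as a block 597 genes passed, and DESeq2 called 408.

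**Figure D3:**
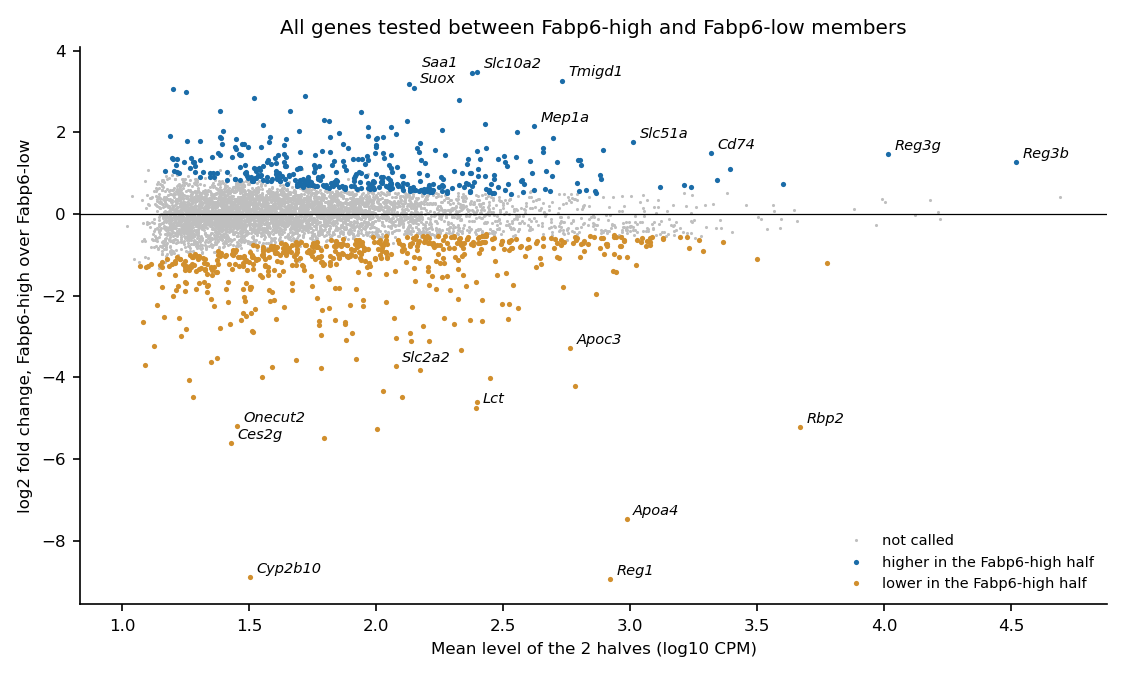
Log2 fold change of Fabp6-high over Fabp6-low members (y axis) against the mean level of both (x axis, log10 CPM) for the 5981 genes tested with edgeR. Blue genes are higher and orange genes lower at an adjusted p of 0.05, with Slc10a2 and Saa1 at the top and Reg1, Cyp2b10 and Apoa4 at the bottom.

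Genes of bile acid handling were higher in Fabp6-high members, 5 of 7 tested against 1 lower, with a list median of 1.56 on the log2 scale. Slc10a2 (chromosome 8, 5083219 to 5105351), the apical uptake transporter, stood at 376, 615 and 381 CPM in Fabp6-high members of libraries 1, 2 and 3, against 1.74, 81.1 and 46.6 CPM in Fabp6-low members. The groups did not overlap, and the Fabp6-low value was lowest in library 1, where the median cut was lowest as well (0.139% Fabp6). The difference passed (log2 fold change 3.47 ± 0.34 (SE), adjusted p = 2.06e-06, edgeR), and against Fabp1-only members it was 8.18, where Slc10a2 had 3 UMIs in all. Slc51a, a subunit of the basolateral exporter, stood at 1404, 1827 and 1522 CPM in Fabp6-high members of libraries 1, 2 and 3, against 462, 491 and 451 CPM in Fabp6-low members (log2 fold change 1.77 ± 0.18 (SE), adjusted p = 3.89e-06, edgeR). Its partner Slc51b stood at 987, 1384 and 1106 CPM in Fabp6-high members against 346, 384 and 466 CPM in Fabp6-low members (log2 fold change 1.56 ± 0.19 (SE), adjusted p = 2.26e-05, edgeR). No value of either subunit in Fabp6-low members reached those in Fabp6-high members. Fgf15 stood at 160.3, 121 and 206 CPM in Fabp6-high members of libraries 1, 2 and 3, against 85.1, 25.1 and 41.3 CPM in Fabp6-low members (log2 fold change 1.88 ± 0.25 (SE), adjusted p = 5.38e-05, edgeR), with no overlap between the groups. In thinned members Fgf15 did not pass (0.87 on the log2 scale, adjusted p = 0.105), and Slc10a2 passed at 2.09. Nr1h4, the bile acid receptor, stood at 87.0, 149 and 164 CPM in Fabp6-high members against 27.8, 76.9 and 53.3 CPM in Fabp6-low members (log2 fold change 1.32 ± 0.20 (SE), adjusted p = 0.000202, edgeR). The exception was Abcc2, an apical exporter of conjugates, at 57.3, 36.3 and 50.3 CPM in Fabp6-high members against 144, 97.4 and 177 CPM in Fabp6-low members (log2 fold change -1.48 ± 0.20 (SE), adjusted p = 6.41e-05, edgeR). Abcc3, another exporter, did not pass (adjusted p = 0.763, edgeR). Nr0b2, another target of the receptor, had 13 UMIs in all members, Abcb11 had none, and neither of them nor Baat was tested.

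**Figure D4:**
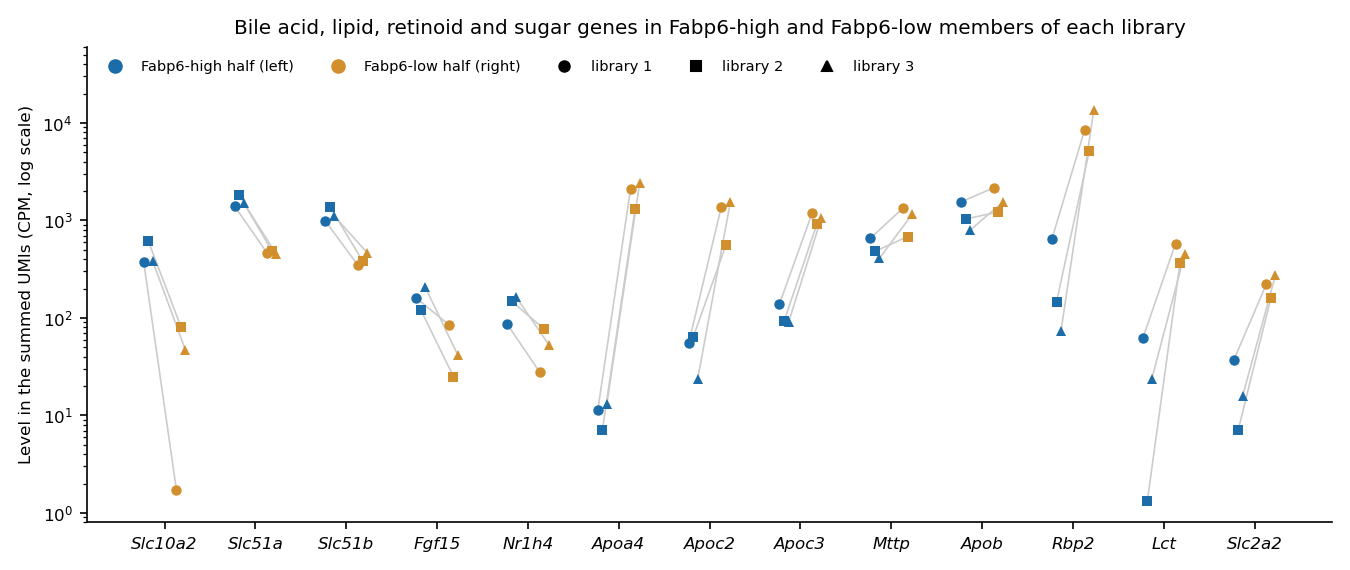
Level of bile acid, lipid, retinoid, lactase and glucose transporter genes in Fabp6-high members (left, blue) and Fabp6-low members (right, orange) of each library (CPM of summed UMIs, log axis). Each line joins the values of 1 library. Slc10a2, Slc51a, Slc51b, Fgf15 and Nr1h4 are higher on the Fabp6-high side in all 3 libraries, and the other 8 genes are lower.

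Fat handling lay on the other side. Of 27 tested genes of lipid absorption and chylomicron assembly, 12 were lower in Fabp6-high members and none higher, with a list median of -0.48. Members poor in Fabp6 met the rule through Fabp1, Fabp2 or Apoa1, which themselves bind or carry lipid. The direction of this list can therefore come from the rule, and the part of the rule in it was not tested. Apoa4, an apolipoprotein of chylomicrons, stood at 11.5, 7.07 and 13.2 CPM in Fabp6-high members of libraries 1, 2 and 3, against 2091, 1299 and 2401 CPM in Fabp6-low members, with no overlap (log2 fold change -7.46 ± 0.26 (SE), adjusted p = 1.41e-11, edgeR). Apoc2, the cofactor of lipoprotein lipase, stood at 55.0, 63.7 and 23.8 CPM in Fabp6-high members against 1381, 557 and 1557 CPM in Fabp6-low members (log2 fold change -4.21 ± 0.36 (SE), adjusted p = 4.82e-07, edgeR). Apoc3, which inhibits that lipase, stood at 139.7, 92.0 and 90.0 CPM in Fabp6-high members against 1192, 909.8 and 1053 CPM in Fabp6-low members (log2 fold change -3.28 ± 0.19 (SE), adjusted p = 7.62e-09, edgeR). The fatty acid receptor Cd36 differed by -3.53, the lipid droplet protein Cidec by -2.55 and the acyl-CoA synthetase Acsl5 by -1.06 on the log2 scale, the last not passing in thinned members (adjusted p = 0.0957). Mttp, of the assembly machinery, stood at 657, 481 and 408 CPM in Fabp6-high members against 1336, 682 and 1153 CPM in Fabp6-low members (log2 fold change -0.98 ± 0.21 (SE), adjusted p = 0.00359, edgeR), and without library 3 its adjusted p was 0.0521. Apob, the structural protein, did not pass, with 1551, 1035 and 797 CPM in Fabp6-high members against 2163, 1219 and 1545 CPM in Fabp6-low members (adjusted p = 0.0842, edgeR), nor did Dgat1, which makes triglyceride, with 683, 417 and 394 CPM in Fabp6-high members against 775, 506 and 627 CPM in Fabp6-low members (adjusted p = 0.193). Against Fabp1-only members 24 of 27 lipid genes were lower, so the count depends on where the members are divided.

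Retinoid genes differed in the same direction, with 5 of 7 tested lower in Fabp6-high members and none higher. Rbp2, the retinol-binding protein of enterocytes, stood at 648, 146 and 74.1 CPM in Fabp6-high members of libraries 1, 2 and 3, against 8492, 5105 and 13456 CPM in Fabp6-low members (log2 fold change -5.22 ± 0.51 (SE), adjusted p = 1.84e-06, edgeR). Library 1 had the highest value on the Fabp6-high side and library 3 on the low side. Adh1, an alcohol dehydrogenase that also acts on retinol, stood at 4.58, 3.98 and 2.65 CPM in Fabp6-high members against 236, 127 and 230.4 CPM in Fabp6-low members (log2 fold change -5.28 ± 0.29 (SE), adjusted p = 4.35e-09, edgeR). Rdh7, a retinol dehydrogenase, differed by -2.56, Adh6a by -4.02 and Aldh1a1, which makes retinoic acid, by -1.36 on the log2 scale, and the last did not pass in DESeq2 (adjusted p = 0.237).

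Digestion and transport split by gene. Of 18 tested brush border hydrolases, 4 were higher in Fabp6-high members and 7 lower. Lct, the lactase of the upper gut, stood at 61.8, 1.33 and 23.8 CPM in Fabp6-high members of libraries 1, 2 and 3, against 578, 368 and 450.1 CPM in Fabp6-low members (log2 fold change -4.74 ± 0.45 (SE), adjusted p = 1.69e-06, edgeR). Mme, a membrane peptidase, stood at 61.8, 28.3 and 21.2 CPM in Fabp6-high members against 434, 272 and 470.1 CPM in Fabp6-low members (log2 fold change -3.33 ± 0.24 (SE), adjusted p = 7.36e-08, edgeR). Mep1a, the alpha subunit of the protease meprin, lay on the other side, at 664, 734 and 646 CPM in Fabp6-high members of libraries 1, 2 and 3, against 165, 181 and 119.9 CPM in Fabp6-low members (log2 fold change 2.16 ± 0.18 (SE), adjusted p = 3.11e-07, edgeR). In thinned members the Mep1a difference was 0.96 (adjusted p = 0.0539). Its partner Mep1b did not pass, with 1218, 1053 and 902 CPM in Fabp6-high members against 1001, 634 and 767 CPM in Fabp6-low members (adjusted p = 0.13). Sis and Anpep, which are made along much of the small intestine, did not pass either. Sis stood at 2977, 2774 and 3427 CPM in Fabp6-high members against 3137, 2269 and 2596 CPM in Fabp6-low members (adjusted p = 0.534, edgeR) and Anpep at 2808, 2462 and 1644 CPM in Fabp6-high members against 2289, 1534 and 1986 CPM in Fabp6-low members (adjusted p = 0.498). A p above the threshold does not show that they were equal.

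Of 17 tested transporters of sugars, peptides and amino acids, 2 were higher in Fabp6-high members and 7 lower. Slc2a2, the basolateral glucose exit, stood at 36.6, 7.07 and 15.9 CPM in Fabp6-high members of libraries 1, 2 and 3, against 222, 160.1 and 274 CPM in Fabp6-low members (log2 fold change -3.73 ± 0.29 (SE), adjusted p = 1.67e-07, edgeR). Slc1a1, which carries glutamate and aspartate, stood at 224, 163 and 193 CPM in Fabp6-high members against 27.8, 66.0 and 43.9 CPM in Fabp6-low members (log2 fold change 1.97 ± 0.24 (SE), adjusted p = 2.13e-05, edgeR). Slc5a1, the apical entry for glucose, did not pass, with 1461, 875 and 871 CPM in Fabp6-high members against 2006, 954 and 1201 CPM in Fabp6-low members (adjusted p = 0.246, edgeR). Against Fabp1-only members Slc5a1 was lower, with a log2 fold change of -0.70 (adjusted p = 0.00622, edgeR), and 11 of 17 transporters were lower and 1 higher. The peptide transporter Slc15a1 differed by -0.61 (adjusted p = 0.0388, edgeR), a call lost in thinned members (adjusted p = 0.626) and in DESeq2 (adjusted p = 0.187).

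Lists of proximal and distal enterocyte genes were set against the division. Of 11 distal genes tested, 8 were higher and none lower, and of 11 proximal genes 7 were lower and 2 higher. Among all genes tested 6.35% were higher and 9.45% lower. The 8 include the peptidase Enpep (adjusted p = 0.0343, edgeR), a call lost in DESeq2 (adjusted p = 0.0736) and in thinned members (adjusted p = 0.314, edgeR). With members divided at 0.1% Fabp6, and against Fabp1-only members, 7 distal genes were higher. The lists share genes with those above. The proximal genes that were higher were Slc40a1, the iron exporter, at 27.5, 51.3 and 45.0 CPM in Fabp6-high members against 3.47, 32.6 and 2.66 CPM in Fabp6-low members (log2 fold change 1.40 ± 0.38 (SE), adjusted p = 0.0184, edgeR), and Scd2, a fatty acid desaturase, at 169, 142 and 146 CPM in Fabp6-high members against 19.1, 77.7 and 42.6 CPM in Fabp6-low members (log2 fold change 1.63 ± 0.27 (SE), adjusted p = 0.000528, edgeR). The call for Slc40a1 was lost without the library as a block (adjusted p = 0.162). Cubn, the ileal receptor for vitamin B12 bound to intrinsic factor, stood at 286, 226 and 172 CPM in Fabp6-high members against 226, 102 and 86.6 CPM in Fabp6-low members (log2 fold change 0.86 ± 0.20 (SE), adjusted p = 0.00629, edgeR), and its partner Amn did not pass, with 245, 216 and 154 CPM in Fabp6-high members against 271, 194 and 168 CPM in Fabp6-low members (adjusted p = 0.998). In thinned cells, with 2000 UMIs each, the Cubn difference was -0.19 and did not pass. In the list of vitamin, iron and calcium uptake, 3 of 17 tested genes were higher and 5 lower. Slc23a1, a vitamin C transporter, differed by -3.71 and rested on few UMIs, with 9.16, 0 and 0 CPM in Fabp6-high members against 17.4, 19.2 and 28.0 CPM in Fabp6-low members and no call in DESeq2 (adjusted p = 0.165). Fth1, the heavy chain of ferritin, stood at 3436, 3446 and 3814 CPM in Fabp6-high members against 8725, 6228 and 10133 CPM in Fabp6-low members (log2 fold change -1.19 ± 0.25 (SE), adjusted p = 0.00315, edgeR), and without library 1 its adjusted p was 0.179. Atp2b1, which pumps calcium out of the cell, differed by 1.10 and the metal-binding Mt1 by -1.50 on the log2 scale. Against Fabp1-only members the Mt1 difference was -0.37 and did not pass.

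**Figure D5:**
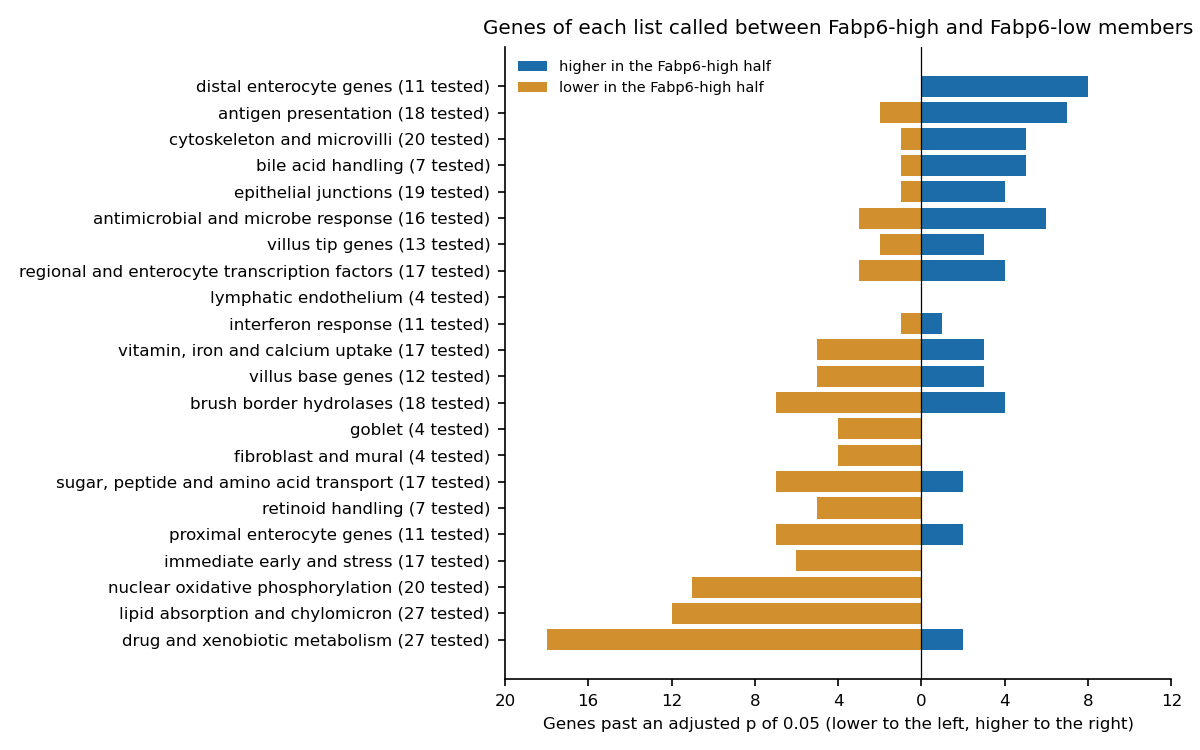
Number of genes in each list that passed an adjusted p of 0.05 (edgeR), with those higher in Fabp6-high members to the right in blue and those lower to the left in orange. The number tested stands beside each list. Distal genes gave 8 calls, all higher, and drug and xenobiotic genes gave 18 lower and 2 higher.

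Drug and xenobiotic metabolism held the most lower genes of the lists, 18 of 27 tested against 2 higher, with a list median of -1.22. Cyp2b10, a cytochrome P450 induced by foreign compounds, had no UMI in 3076437 UMIs of Fabp6-high members and stood at 52.1, 46.0 and 93.2 CPM in Fabp6-low members. Against a floor of 3 UMIs over all Fabp6-high members it was at least 57.9-fold lower there (adjusted p = 4.73e-07, edgeR). Cyp3a11, another P450 of this kind, stood at 2.29, 2.65 and 5.29 CPM in Fabp6-high members against 99.0, 36.4 and 66.6 CPM in Fabp6-low members (log2 fold change -3.99 ± 0.36 (SE), adjusted p = 1.04e-06, edgeR). Gstm3, a glutathione transferase, stood at 13.7, 5.31 and 10.6 CPM in Fabp6-high members against 221, 117 and 390.2 CPM in Fabp6-low members (log2 fold change -4.48 ± 0.26 (SE), adjusted p = 6.66e-09, edgeR). The drug exporter Abcg2 was higher, at 353, 534 and 461 CPM in Fabp6-high members against 195, 193 and 219.7 CPM in Fabp6-low members (log2 fold change 1.17 ± 0.18 (SE), adjusted p = 0.000266, edgeR), as was Abcb1a, by 0.94. In thinned members Abcg2 did not pass (0.47 on the log2 scale, adjusted p = 0.41). Of the genes of this list with the most UMIs, the log2 difference was -0.08 for the esterase Ces2e (adjusted p = 0.831), -0.34 for Cyp4f14 (adjusted p = 0.2), -0.77 for the sulfotransferase Sult1b1 (adjusted p = 0.00546), -0.19 for Sult1d1 (adjusted p = 0.505) and -2.58 for Gsta1 (adjusted p = 1.25e-06, edgeR). Cyp3a, Ces2, Gstm, Reg3, H2-Q and Sprr2a genes have near-identical relatives, so the division of counts within these families is uncertain.

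Antimicrobial genes differed in both directions, 6 of 16 tested higher and 3 lower. Reg3b stood at 34376, 57112 and 46691 CPM in Fabp6-high members of libraries 1, 2 and 3, against 13976, 29386 and 16454 CPM in Fabp6-low members (log2 fold change 1.26 ± 0.33 (SE), adjusted p = 0.0158, edgeR). It was higher in all 3 libraries, but the adjusted p was 0.436 without library 1 and 0.179 without library 3. Reg3g, its close relative, stood at 12805, 17403 and 14519 CPM in Fabp6-high members against 3422, 8982 and 5094 CPM in Fabp6-low members (log2 fold change 1.46 ± 0.28 (SE), adjusted p = 0.00149, edgeR), with an adjusted p of 0.206 without library 1. Reg3a and Reg1 lay on the opposite side. Reg3a stood at 80.2, 87.1 and 148 CPM in Fabp6-high members against 323, 369 and 867 CPM in Fabp6-low members (log2 fold change -2.20 ± 0.19 (SE), adjusted p = 6.22e-07, edgeR). Reg1, a secreted regenerating protein, had 5 UMIs in all Fabp6-high members and stood at 875, 378 and 3742 CPM in Fabp6-low members, highest in library 3 (log2 fold change -8.93 ± 0.44 (SE), adjusted p = 1.24e-09, edgeR). Saa1, a serum amyloid A protein that epithelium makes in contact with bacteria, stood at 486, 541 and 281 CPM in Fabp6-high members of libraries 1, 2 and 3, against 26.1, 60.2 and 32.0 CPM in Fabp6-low members, with no overlap (log2 fold change 3.44 ± 0.22 (SE), adjusted p = 1.7e-08, edgeR). The oxidase Duox2 stood at 492, 144 and 196 CPM in Fabp6-high members against 156, 69.4 and 59.9 CPM in Fabp6-low members (log2 fold change 1.45 ± 0.18 (SE), adjusted p = 2.89e-05, edgeR). Its maturation factor Duoxa2 differed by 1.56 and Nos2, the inducible nitric oxide synthase, by 1.62, and for all 3 genes library 1 was the highest. None of the 3 passed in thinned members, with 0.24 for Duox2 (adjusted p = 0.669), 0.56 for Duoxa2 (adjusted p = 0.314) and 0.16 for Nos2 (adjusted p = 0.772). Without the library as a block Duoxa2 and Nos2 were lost as well (adjusted p = 0.0808 and 0.101). Saa1 passed in thinned members, at 1.92. The immunoglobulin carrier Pigr did not pass, with 3401, 2675 and 3208 CPM in Fabp6-high members against 3684, 2912 and 3252 CPM in Fabp6-low members (adjusted p = 0.849, edgeR), nor did Lypd8 (adjusted p = 0.568).

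MHC class II genes were higher in Fabp6-high members, though some calls did not hold at equal depth. In the antigen presentation list 7 of 18 tested genes were higher and 2 lower, and the 7 are Cd74, H2-Aa, H2-Ab1, H2-Eb1, H2-DMa, H2-DMb1 and Ciita. Cd74, the invariant chain, stood at 2897, 3678 and 2514 CPM in Fabp6-high members of libraries 1, 2 and 3, against 939.7, 1632 and 811 CPM in Fabp6-low members (log2 fold change 1.48 ± 0.20 (SE), adjusted p = 5.05e-05, edgeR). H2-Aa, a chain of the class II dimer, stood at 582, 1082 and 654 CPM in Fabp6-high members against 159.8, 315 and 176 CPM in Fabp6-low members (log2 fold change 1.86 ± 0.17 (SE), adjusted p = 1.15e-06, edgeR). Ciita, the regulator that switches on class II genes, stood at 34.4, 68.5 and 74.1 CPM in Fabp6-high members against 8.68, 24.7 and 16.0 CPM in Fabp6-low members (log2 fold change 1.77 ± 0.25 (SE), adjusted p = 0.0001, edgeR). In thinned members Cd74 passed at 0.98, while H2-Aa, H2-Ab1 and H2-Eb1 stood at 0.87, 0.80 and 0.72 and did not pass (adjusted p = 0.0957, 0.0642 and 0.166). The class I genes H2-K1, H2-D1 and B2m did not pass, with H2-K1 at 1532, 1239 and 823 CPM in Fabp6-high members against 1325, 871 and 779 CPM in Fabp6-low members (adjusted p = 0.334) and adjusted p of 0.133 for H2-D1 and 0.854 for B2m (edgeR). The class I relatives H2-Q1 and H2-Q2 were lower, with log2 fold changes of -0.78 and -0.89, and H2-Q2 did not pass in thinned members (adjusted p = 0.207). Whether RNA of other cells added to the class II levels was not tested. B cell and myeloid genes were low on both sides, where the rule had already left out barcodes with Ptprc. B or plasma cell genes summed to 2.29, 72.1 and 21.2 CPM in Fabp6-high members and 10.4, 76.9 and 14.6 CPM in Fabp6-low members, and myeloid genes to 2.29, 12.8 and 5.29 CPM and 1.74, 14.2 and 6.66 CPM in the same order.

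Among 17 regional and enterocyte transcription factors tested, 4 were higher in Fabp6-high members and 3 lower. Gata4, which sets jejunal against ileal identity in mice, stood at 6.87, 2.65 and 21.2 CPM in Fabp6-high members of libraries 1, 2 and 3, against 45.2, 41.4 and 42.6 CPM in Fabp6-low members (log2 fold change -2.70 ± 0.42 (SE), adjusted p = 0.000228, edgeR). Gata6, its relative in the whole small intestine, stood at 59.5, 44.2 and 34.4 CPM in Fabp6-high members against 101, 74.4 and 99.9 CPM in Fabp6-low members (log2 fold change -0.90 ± 0.22 (SE), adjusted p = 0.00995, edgeR), a call lost in DESeq2 (adjusted p = 0.104). Onecut2, a factor of the upper small intestine, had 3 UMIs in all Fabp6-high members and stood at 71.2, 28.4 and 69.3 CPM in Fabp6-low members, a pooled ratio of 44.4-fold lower (exact 95% interval 14.9 to 217.5, counting error only). Hnf4a, a factor of enterocyte identity, stood at 323, 269.7 and 257 CPM in Fabp6-high members against 182, 181 and 144 CPM in Fabp6-low members (log2 fold change 0.75 ± 0.16 (SE), adjusted p = 0.00483, edgeR), a call lost in thinned members (adjusted p = 0.11). Maf was higher by 0.57 (adjusted p = 0.0381, edgeR), a call lost in thinned members (adjusted p = 0.876) and in DESeq2 (adjusted p = 0.0782), and Batf2 by 1.13 and Osr2 by 0.75. Klf5 and Klf4, factors of crypt and villus epithelium, did not pass (adjusted p = 0.613 and 0.108, edgeR). Creb3l3, which drives apolipoprotein genes, stood at 149, 21.2 and 26.5 CPM in Fabp6-high members against 412, 201 and 296 CPM in Fabp6-low members (log2 fold change -2.56 ± 0.28 (SE), adjusted p = 8.82e-06, edgeR). The duodenal factor Pdx1 had 3 UMIs in all members.

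Structural genes passed in both directions. Of 20 genes of cytoskeleton and microvilli, 5 were higher and 1 lower, with Krt19 at 2249, 2677 and 3237 CPM in Fabp6-high members against 901, 2630.3 and 1499.5 CPM in Fabp6-low members (log2 fold change 0.82 ± 0.23 (SE), adjusted p = 0.0235, edgeR), a call lost without library 1 (adjusted p = 0.424). The gene that was lower was Plac8, by -1.10. Villin (Vil1) did not pass, with 1672, 1551 and 1527 CPM in Fabp6-high members against 1508, 1184 and 1421 CPM in Fabp6-low members (adjusted p = 0.455). Of 19 junction genes, 4 were higher and 1 lower, and against Fabp1-only members 11 were higher and 1 lower. Cldn2, a claudin that lets cations through, stood at 93.9, 109 and 129.7 CPM in Fabp6-high members of libraries 1, 2 and 3, against 5.21, 50.1 and 4.00 CPM in Fabp6-low members (log2 fold change 2.27 ± 0.40 (SE), adjusted p = 0.000845, edgeR), and Cldn15, another pore-forming claudin, differed by -0.69 (adjusted p = 0.0106, edgeR; 0.0725 in DESeq2 and 0.681 in thinned members). In the interferon list 1 of 11 tested genes was higher, Ifit1bl1, and 1 lower, Ifi27l2b, by 1.51 and -1.25 on the log2 scale. Ifit1bl1 did not pass in thinned members (adjusted p = 0.827), nor Ifi27l2b in DESeq2 (adjusted p = 0.185). Nuclear genes of oxidative phosphorylation were lower in 11 of 20 and higher in none, with Ndufa4 at 376, 491 and 545 CPM in Fabp6-high members against 1013, 1318 and 1382 CPM in Fabp6-low members (log2 fold change -1.39 ± 0.17 (SE), adjusted p = 2.9e-05, edgeR), which missed the threshold in thinned members (adjusted p = 0.0642). Against Fabp1-only members 19 of these 20 genes were lower. Immediate early and stress genes were lower in 6 of 17, and their sum was 5519.7, 4113 and 5613 CPM in Fabp6-high members and 6317, 6121 and 6041 CPM in Fabp6-low members. Hspa1a, a heat shock protein, differed by -1.37. Against Fabp1-only members none of the 17 was lower and 1 was higher.

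The largest differences also fell on genes outside the lists. Tmigd1, an adhesion protein of epithelial cells, stood at 863, 1348 and 699 CPM in Fabp6-high members of libraries 1, 2 and 3, against 66.0, 164 and 81.2 CPM in Fabp6-low members (log2 fold change 3.26 ± 0.20 (SE), adjusted p = 9.81e-09, edgeR), and at 1.44 on the log2 scale in thinned members, where it passed. Suox, the mitochondrial sulfite oxidase, stood at 181, 305 and 267 CPM in Fabp6-high members against 1.74, 73.1 and 14.6 CPM in Fabp6-low members (log2 fold change 3.09 ± 0.36 (SE), adjusted p = 1.23e-05, edgeR), and Slc13a1, which takes up sulfate, at 263, 522 and 315 CPM in Fabp6-high members against 26.1, 58.1 and 83.9 CPM in Fabp6-low members (log2 fold change 2.80 ± 0.25 (SE), adjusted p = 9.52e-07, edgeR). The carrier Slc25a48 differed by 2.87, Ttc36 by 2.85, the small proline-rich protein Sprr2a3 by 3.19 and Ccl20, a chemokine that attracts lymphocytes and dendritic cells, by 2.53. On the lower side were Aadac, an esterase of lipid and drug metabolism, at 6.87, 0.884 and 2.65 CPM in Fabp6-high members against 130.3, 81.5 and 152 CPM in Fabp6-low members (log2 fold change -5.48 ± 0.36 (SE), adjusted p = 2.89e-08, edgeR), and Ckb, the brain-type creatine kinase, at 9.16, 25.2 and 5.29 CPM in Fabp6-high members against 481, 374 and 599 CPM in Fabp6-low members (log2 fold change -4.61 ± 0.32 (SE), adjusted p = 4.85e-08, edgeR). The esterase Ces2g had 2 UMIs in Fabp6-high members and stood at 52.1, 27.2 and 81.2 CPM in Fabp6-low members.

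Markers of other cells moved with the division. All 4 goblet genes tested, Tff3, Fcgbp, Zg16 and Spink4, were lower in Fabp6-high members, and the 9-gene sum was 257, 174 and 68.8 CPM in Fabp6-high members and 1671, 984 and 142 CPM in Fabp6-low members. Muc2 stood at 6.77, 4.23 and 1.98 CPM in Fabp6-only members and 191, 184 and 0 CPM in Fabp1-only members, with library 3 in the opposite order. Fcgbp stood at 16.0, 9.73 and 18.5 CPM in Fabp6-high members against 274, 178 and 2.66 CPM in Fabp6-low members, library 3 again in the opposite order, and was lost in DESeq2 (adjusted p = 0.467). Zg16 was lost without the library as a block (adjusted p = 0.106). When members with over 0.2% of UMIs from goblet, fibroblast and mural, lymphatic or B cell genes were left out, a choice made after the data were seen, Tff3 and Zg16 turned to 0.43 and 0.94 on the log2 scale and did not pass. All 4 fibroblast and mural genes tested, Acta2, Tagln, Myh11 and Col3a1, were lower as well, with a sum of 4.58, 248 and 5.29 CPM in Fabp6-high members and 53.8, 1024 and 238 CPM in Fabp6-low members, and none of the 4 could be tested in the smaller set. Acta2, Tagln and Myh11 had no UMI on either side in library 1. They did not pass in DESeq2 (adjusted p = 0.445, 0.885 and 0.843) or without the block (adjusted p = 0.349, 0.304 and 0.218), and with members divided at 0.1% Fabp6 none of 5 such genes passed. With the members rich in goblet, fibroblast and mural, lymphatic or B cell UMIs left out, 769 of 5781 genes passed (13.3%), 300 higher (5.19%) and 469 lower (8.11%). Among them 5 bile acid genes were higher and 11 lipid genes lower. Lymphatic genes summed to 268, 229 and 111 CPM in Fabp6-high members and 122, 283 and 79.9 CPM in Fabp6-low members, and none of 4 tested passed. Of the stem and transit amplifying list only Axin2, a target of Wnt signalling, could be tested, at 32.1, 83.1 and 74.1 CPM in Fabp6-high members against 22.6, 29.3 and 20.0 CPM in Fabp6-low members (log2 fold change 1.46 ± 0.26 (SE), adjusted p = 0.000773, edgeR), and Lgr5 had 1 UMI in all members.

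A second division was meant to follow the villus and to ask what goes along with genes of its tip. Members were divided at the library median of Ada, Nt5e, Slc28a2 and Creb3l3 together, into 146 tip-high and 169 tip-low members. Tip-high members had a median of 7028, 25550 and 26894 UMIs and tip-low members 11735, 18712 and 6333. Of the UMIs of the 4 genes 95.7% were Creb3l3 (1063 UMIs), against 38 of Ada, 9 of Slc28a2 and 1 of Nt5e. Of the 146 tip-high members, 108 (74.0%) were Fabp6-low. The names tip-high and tip-low therefore stand mostly for the level of Creb3l3, a gene that was itself lower in Fabp6-high members. This division overlaps the first one and does not separate place on the villus from place along the gut. None of 6037 genes passed an adjusted p of 0.05 (0.0%) with edgeR, where 781 had an unadjusted p under 0.05, the lowest adjusted p was 0.0589, and DESeq2 called 90 (1.49%), 52 higher (0.861%) and 38 lower (0.629%). The number moved between 0 and 736 with the settings. The genes with the lowest p included Cyp3a11, at 127, 39.8 and 69.6 CPM in tip-high members and 14.4, 0.426 and 2.53 CPM in tip-low members, and Nr1h4, at 25.9, 64.5 and 49.1 CPM in tip-high and 70.3, 158 and 167 CPM in tip-low members. The villus-tip and villus-base lists likewise split between Fabp6-high and Fabp6-low members, with 3 of 13 tip genes higher and 2 lower, and 3 of 12 base genes higher and 5 lower. Bmp2, a signal of the villus, was higher by 1.09 in Fabp6-high members with edgeR and did not pass in DESeq2 (adjusted p = 0.0812) or with members divided at 2% Fabp6 (0.49 on the log2 scale, adjusted p = 0.4).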

How the data were processed

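The authors deposited raw UMI counts for each gene and barcode, with no normalization. Libraries used the Chromium 3′ v3 chemistry per the labels' protocols. Reads were handled with Cell Ranger 6.1.2 after bcl2fastq 2.2, on mm10, per the submitters' processing notes. The annotation release and the treatment of reads shared by related genes are not given in the sources used here. Each library counts as 1 replicate, since cells are not replicates. Levels were computed as CPM over the summed UMIs of a class in a library, and features sharing 1 of 38 symbols were added up. The sums were compared by the quasi-likelihood functions of edgeR 4.0.16 (R 4.3.3) after TMM scaling and filterByExpr. The library is a block, because each library gives 1 sum to either side, which pairs them by construction. Standard errors are approximate, from the fold change and its F statistic. DESeq2 1.42.0, other size factors, no filter, no block, other limits of the rule, thinning to 2000 UMIs and leaving out each library were tried, and the code was tested on simulated data. Coordinates are from GENCODE M21 on GRCm38, which holds 32158 of 32285 features, and 7 of 8 promoters looked up were found in the RefSeq table.

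The members, lists and tests were chosen with earlier results of these data known. Named are the 10 genes with the largest difference in each direction that passed, kept 1 sign over the libraries and reached 50 CPM on the higher side, the gene with the largest such difference in each direction from each list, the 5 genes of each list with the most UMIs (left out where no result turns on them), those of the 20 genes with the most UMIs that are reported here, the markers, the rule's genes and the genes of the sort. Other named genes, among them Nr1h4, Gata4, Gata6, Ciita, Maf, Slc40a1, Slc23a1, Apoc2, Cidec, Gstm3, Cyp3a11 and the cholesterol genes, were chosen after their values were seen.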

Additional observations from a re-analysis of the deposited data

How the results depend on the processing

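The number of members was 113 to 263 with each library left out, since library 2 holds most of them, and stayed within 1.5 times of 315 under the other rules tried. The summed level of the 5 markers moved by less than its spread over libraries. Between Fabp6-high and Fabp6-low members, 408 genes passed in DESeq2, 597 without the library as a replicate block and 76 of 873 after thinning to 2000 UMIs, against 945. With each library left out 736 to 857 genes passed, and other settings gave 717 to 1362. Thinning turned the difference of Cubn to -0.19, and leaving out members rich in other-type UMIs turned Tff3 to 0.43 and Zg16 to 0.94, and none of the 3 passed there. Of 110 genes followed, 16 lost their call in DESeq2, 18 without the block and 13, 4 and 9 without libraries 1, 2 and 3. After thinning 42 could not be tested, 21 lost their call, 1 reversed and 46 stayed on their side of the threshold. For villus-tip-high against tip-low members, none passed in the main setting. DESeq2 called 90 genes, and 443 passed without a filter, 28 with the rule at 2% and 487 at 10% mitochondrial UMIs. With the middle of the tip measure left out, 736 passed. In libraries 2 and 3 this took members from the high side only, and the low sides kept all 111 and 27 members. Without members rich in lymphatic UMIs 96 passed, and 39 among Fabp6 members (library 3 left out, with 9 tip-high members). With each library left out 3 to 547 passed. The cause of this spread was not tested. Depth limits genes of few UMIs, and the 3 libraries limit every p-value.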

Other observations

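Genes of cholesterol synthesis, which were in no list and were picked out after the values were seen, stood higher in Fabp6-high members in all 3 libraries. Sqle, the squalene epoxidase, stood at 144, 136 and 169 CPM in Fabp6-high members of libraries 1, 2 and 3, against 17.4, 38.4 and 16.0 CPM in Fabp6-low members (log2 fold change 2.50 ± 0.26 (SE), adjusted p = 3.37e-06, edgeR). Hmgcs1, which makes the precursor of mevalonate, stood at 453, 337 and 537 CPM in Fabp6-high members against 64.3, 121 and 91.9 CPM in Fabp6-low members (log2 fold change 2.20 ± 0.22 (SE), adjusted p = 2.24e-06, edgeR). Fdps, the farnesyl diphosphate synthase, stood at 149, 180.4 and 236 CPM in Fabp6-high members against 13.9, 75.2 and 33.3 CPM in Fabp6-low members (log2 fold change 2.13 ± 0.28 (SE), adjusted p = 3.89e-05, edgeR), and Cyp51, the lanosterol demethylase, at 142, 127 and 193 CPM in Fabp6-high members against 10.4, 47.6 and 37.3 CPM in Fabp6-low members (log2 fold change 2.14 ± 0.27 (SE), adjusted p = 3.35e-05, edgeR). Against Fabp1-only members the 4 differences were 3.92, 2.97, 2.89 and 3.19 on the log2 scale. Because these genes were chosen for their difference, they give no evidence on the pathway beyond their own values.

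Pla2g4c, a phospholipase, rested on 1 library. It stood at 699, 23.0 and 13.2 CPM in Fabp6-high members of libraries 1, 2 and 3, against 38.2, 22.1 and 0 CPM in Fabp6-low members (log2 fold change 2.27 ± 0.56 (SE), adjusted p = 0.00988, edgeR), and without library 1 the difference was 0.52 with an adjusted p of 0.533.

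The 20 members with neither Fabp6 nor Fabp1 at 0.1% of UMIs met the rule through Fabp2 and Apoa1. Apoa1 stood at 25798, 11970.5 and 7601 CPM and Fabp2 at 7677, 9519.5 and 13025 CPM in them, in 12, 7 and 1 members of libraries 1, 2 and 3. Slc10a2 had 2 UMIs there and Apoa4 111 UMIs.

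The 94 barcodes that met the rule but for Prox1 had a median of 26256 UMIs and a median of 0.471% of UMIs in lymphatic genes, against 0.00880% in members and 1.81% in Prox1-positive barcodes. Of these, 25 had a single Prox1 UMI, 24 had at most 0.2% of lymphatic UMIs and 16 had over 1%. Whether they hold RNA of more than 1 cell was not tested.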
